A study of Mus musculus with 9 samples.

Results

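The insulin-like growth factor (IGF) system was followed through 10 genes: the ligands Igf1 and Igf2, the receptors Igf1r and Igf2r, and the binding proteins Igfbp2, Igfbp3, Igfbp4, Igfbp5, Igfbp6 and Igfbp7. They were taken by name from the 56289 gene identifiers of the deposited table, and 8 of the 10 were high enough to be tested among 13026 genes. The other two, Igf2 and Igfbp2, were at or near 0 in every library. The 9 libraries are labelled RAW264.7, a macrophage-like line from BALB/c mice, with 3 libraries in each of 3 groups: TNF plus WBG (tumour necrosis factor alpha together with Wang Bi granules, a Chinese herbal preparation, for 24 h), TNF (tumour necrosis factor alpha alone for 24 h) and untreated (no agent, and no time given in the labels). No deletion, transgene or other agent is given for any group, and the labels name no dose. Nothing in them says that the replicates were separate cultures, so the p-values cover only the spread between these libraries. Time in culture cannot be told apart from TNF in the comparisons with untreated cells.

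IGF1 and IGF2 are secreted growth factors that act through IGF1R, a receptor tyrosine kinase that signals through IRS adaptors to the PI3K-AKT and MAPK pathways. IGF2R, the large mannose 6-phosphate receptor, has no kinase: it takes up IGF2 for breakdown and carries lysosomal enzymes. The IGF binding proteins hold the ligands outside the cell and can block, store or deliver them, and IGFBP7 differs from the rest in binding IGFs only weakly. Macrophages and fibroblasts are both known sources of IGF1.

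Values are FPKM, which scale fragment numbers to gene length and to library size, so levels of different genes can be set side by side. The table holds no counts. The spacing of low values of single-exon genes would put the libraries roughly at 18.9 to 26.1 M fragments if its step is 1 fragment. The fit was loose: 15.0 to 26.2% of these values lay within 0.02 of a whole number of fragments, and only a preset range of depths was searched. The defining markers went against the label: of 15 macrophage markers only Cd68 and Cd14 reached a mean of 1 FPKM, and Ptprc, Itgam, Adgre1 and Tyrobp were listed at 0 in all libraries. The summed macrophage markers lay between 8.14 and 10.6 FPKM with TNF plus WBG, 7.11 and 8.15 FPKM with TNF, and 6.14 and 7.50 FPKM in untreated libraries. Most of this sum was Cd14 alone, with means of 6.64, 5.66 and 4.59 FPKM in that order. Of 14 fibroblast markers 12 reached 1 FPKM, while Lum was listed at 0 in all libraries and Thy1 averaged 0.01 FPKM. The sum of the 14 lay between 5588 and 5683 FPKM with TNF plus WBG, 5635 and 5926 FPKM with TNF, and 5345 and 5702 FPKM untreated. In TNF against untreated limma called 3 of 12 tested fibroblast markers higher (Col1a1, Col1a2, Fbn1) and 3 lower (Pdgfrb, Postn, Vim). Over all genes tested 6.43% were called higher and 4.21% lower. Neither of the 2 macrophage markers tested was called. Cd14 was higher in every TNF library (5.112 to 6.16 FPKM) than in any untreated library (4.30 to 5.109 FPKM), as were 15.5% of all genes. The part of these shifts in the results below was not tested. No lymphocyte, epithelial, endothelial, skeletal muscle or adipocyte marker reached 1 FPKM. The cells are therefore called by their treatment here. In bulk RNA, fewer cells of a kind and less RNA per cell cannot be told apart.

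The starts of 4 of the genes that moved with TNF are shown first, as the 250 bases before the annotated start in RefSeq (build GRCm38.p6), because Igfbp7 and Igf1 were higher with TNF while Igfbp3 and Igfbp4 were lower. These windows were matched to the genes by symbol alone, because the build behind the FPKM is not given in the sources used here. All 10 genes had at least 1 window. Capitals mark 4 searched motifs on either strand: a TATA box (TATAAA), a GC box (GGGCGG), an NF-kB motif (GGGA and TTCC with any 2 bases between them) and an AP-1 motif (TGANTCA).
Igfbp7, chr5:77408046-77408295, minus strand: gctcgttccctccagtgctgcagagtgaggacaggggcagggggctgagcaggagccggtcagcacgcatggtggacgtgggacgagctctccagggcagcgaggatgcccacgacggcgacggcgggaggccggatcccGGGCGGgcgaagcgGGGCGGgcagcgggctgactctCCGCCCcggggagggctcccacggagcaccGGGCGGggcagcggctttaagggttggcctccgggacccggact
Igf1, chr10:87860861-87861110, plus strand: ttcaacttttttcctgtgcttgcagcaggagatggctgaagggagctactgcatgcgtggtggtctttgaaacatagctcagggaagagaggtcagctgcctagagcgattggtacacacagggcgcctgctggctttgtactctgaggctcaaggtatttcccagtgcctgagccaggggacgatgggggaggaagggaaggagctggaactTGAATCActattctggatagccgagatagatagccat
Igfbp3, chr11:7213924-7214173, minus strand: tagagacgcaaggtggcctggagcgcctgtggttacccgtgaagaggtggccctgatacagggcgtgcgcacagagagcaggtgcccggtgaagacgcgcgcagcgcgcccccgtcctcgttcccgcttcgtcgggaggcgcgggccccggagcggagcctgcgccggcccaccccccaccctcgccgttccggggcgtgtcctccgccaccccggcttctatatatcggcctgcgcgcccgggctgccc
Igfbp4, chr11:99040994-99041243, plus strand: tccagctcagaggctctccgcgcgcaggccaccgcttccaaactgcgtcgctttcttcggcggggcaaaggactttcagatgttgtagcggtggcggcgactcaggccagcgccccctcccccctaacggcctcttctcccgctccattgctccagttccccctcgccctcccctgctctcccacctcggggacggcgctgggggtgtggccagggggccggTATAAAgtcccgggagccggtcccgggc

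The Igfbp7 window was 74.0% G and C and held 4 GC boxes. Of 32851 RefSeq windows of the same length, 32.7% held at least 1 GC box, and the median share of G and C was 52.4%. GC boxes also lay in windows of genes that did not pass or were not tested: Igf1r (2), Igf2r (3), Igfbp2 (3) and Igf2 (1 and 2 in separate windows). The Igf1 window was 52.8% G and C and held 1 AP-1 match, 37 bases before the start (6.75% of all windows held one). The Igfbp4 window held 1 TATA box, 28 bases before the start (12.4% of all windows), and the Igfbp3 window, 73.2% G and C, held none of the 4 motifs. The window of Igfbp5, which was also lower with TNF and is not shown, was 58.8% G and C and held none of them either. An AP-1 match was also found in a window of Igfbp2, and a TATA box in the window of Igfbp6. The NF-kB motif occurred in none of the windows of the 10 genes, and in 1.21% of all windows. A link between motifs and the direction of change was not tested. A match is a string of letters and not a shown site, and a missing match says only that these letters are not in this window.

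The cytokine alone was examined by setting the TNF libraries against the untreated ones. Of the 8 IGF genes tested, Igfbp7 and Igf1 rose and Igfbp3, Igfbp4 and Igfbp5 fell (limma, p under 0.05 after Benjamini-Hochberg adjustment across the 13026 genes), while Igf1r, Igf2r and Igfbp6 did not pass. Over all genes tested 10.6% were called in this comparison, 6.43% higher and 4.21% lower. The libraries of the groups did not overlap for 6 of the 8 genes, 2 higher and 4 lower with TNF, against 30% of all genes (15.5% higher, 14.4% lower). Only Igfbp7 and Igfbp3 were called with every library left out in turn. The count of 5 became 3 without TNF replicate 1, TNF replicate 3 or untreated replicate 2. It became 2 without TNF replicate 2, untreated replicate 1 or untreated replicate 3. Without TNF plus WBG replicate 1 or 2, Igfbp5 alone lost its call.

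Of the ligands, Igf1 (ENSMUSG00000020053) was the only one above 0 in the table. It had 5.53, 6.51 and 6.66 FPKM in the TNF libraries, against 3.11, 4.78 and 3.34 FPKM in the untreated libraries. The groups did not overlap, and untreated replicate 2 stood closest to the TNF libraries. The mean was 6.23 ± 0.61 FPKM with TNF and 3.74 ± 0.90 FPKM untreated (SD, n = 3 each), 1.67-fold higher, with a log2 fold change of 0.62 ± 0.15 (SE; limma adjusted p = 0.0289). The call was lost without TNF replicate 2 (adjusted p = 0.0909), TNF replicate 3 (0.0955), untreated replicate 1 (0.0959) or untreated replicate 3 (0.0982), with the log2 fold change at 0.53 to 0.59 in these fits. Igf2 (ENSMUSG00000048583), the growth factor expressed from the paternal allele in most fetal tissues, was listed at 0 in all 9 libraries. Exons of Gm49394, on the same strand, cover 3596 of the 5723 exon bases of Igf2 (62.8%) and those of Igf2os 98 bases, and how the authors' counting treats shared bases is not stated; Gm49394 reached at most 0.03 FPKM and Igf2os 0.07 FPKM in any library. Also listed at 0 were its neighbour Ins2, an insulin gene, and H19, a maternally expressed non-coding RNA of the same imprinted domain.

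**Figure D1:**
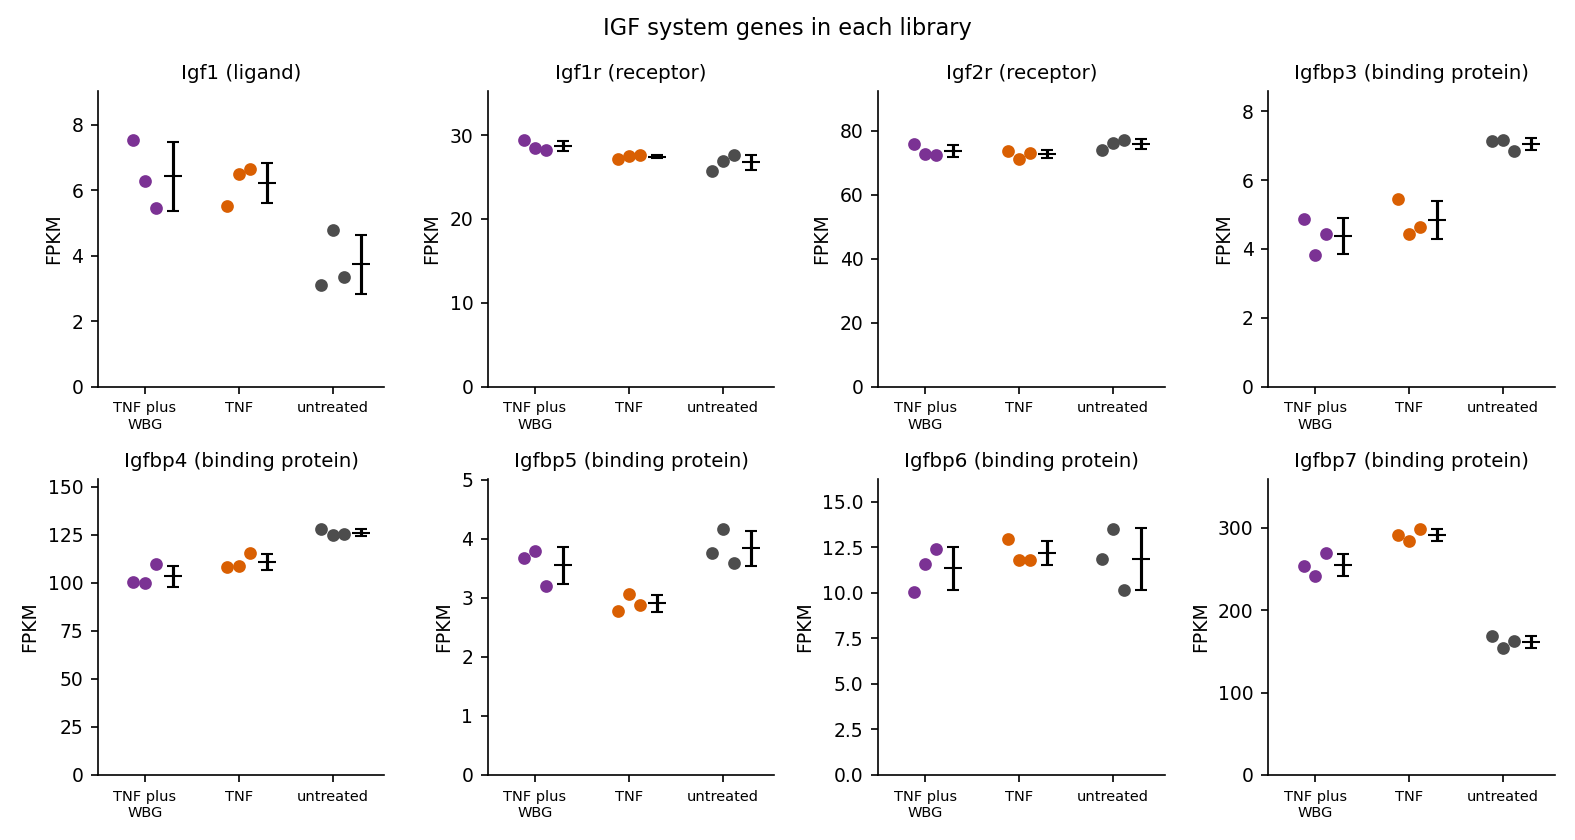
FPKM of the 8 IGF genes tested, by group, each panel on its own linear axis from 0. Points are single libraries (replicates 1 to 3 from left to right) and the bar beside them is the mean ± SD (n = 3). Igfbp7 lies between 284 and 299 FPKM with TNF and between 154 and 169 FPKM in untreated libraries.

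Igf1r (ENSMUSG00000005533), the signalling receptor, had 27.2, 27.5 and 27.6 FPKM in the TNF libraries, against 25.7, 26.9 and 27.6 FPKM in the untreated libraries. The ranges overlapped, and the log2 fold change was 0.04, with a 95% confidence interval of -0.05 to 0.13 (adjusted p = 0.640). Igf2r (ENSMUSG00000023830), the non-signalling receptor, had 73.7, 71.3 and 73.1 FPKM with TNF, against 74.1, 76.2 and 77.1 FPKM untreated. These ranges did not overlap, but the difference was small, with a log2 fold change of -0.06 (95% confidence interval -0.14 to 0.02, adjusted p = 0.342).

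Igfbp7 (ENSMUSG00000036256), the weak IGF binder that is also deposited in vessel walls and matrix, showed the clearest difference of the set. It had 291, 284 and 299 FPKM in the TNF libraries, against 169, 154 and 162 FPKM in the untreated libraries. Every TNF library lay far above every untreated library. The mean was 291 ± 7.45 FPKM with TNF and 161 ± 7.33 FPKM untreated (SD, n = 3 each), 1.80-fold higher, with a log2 fold change of 0.85 ± 0.05 (SE; limma adjusted p = 9.00e-06). Over 85 of the 1209 exon bases of Igfbp7 in GENCODE M21, an exon of Polr2b, an RNA polymerase II subunit on the opposite strand, overlaps, and strand-specific counting is not stated. Polr2b had 24.8 ± 0.93 FPKM with TNF and 25.2 ± 1.15 FPKM untreated (log2 fold change -0.02, adjusted p = 0.856).

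The strong IGF binders went the other way or did not pass. Igfbp3 (ENSMUSG00000020427), the main carrier of IGFs in blood plasma, had 5.46, 4.43 and 4.63 FPKM in the TNF libraries, against 7.14, 7.16 and 6.86 FPKM in the untreated libraries. The untreated libraries were tightly grouped and all lay above the TNF libraries. It fell to 4.84 ± 0.55 FPKM with TNF, against 7.05 ± 0.17 FPKM untreated (SD, n = 3 each), a log2 fold change of -0.47 ± 0.09 (SE; limma adjusted p = 0.0118), and was called in all 18 alternatives that were run.

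Igfbp4 (ENSMUSG00000017493), an inhibitory binding protein that the protease PAPP-A cleaves, was the second most abundant of the set. It had 108, 109 and 116 FPKM in the TNF libraries, against 128, 125 and 125 FPKM in the untreated libraries. The groups did not overlap and the difference was modest: 111 ± 4.02 FPKM with TNF and 126 ± 1.88 FPKM untreated (SD, n = 3 each), a log2 fold change of -0.18 ± 0.04 (SE; limma adjusted p = 0.0307). This call was lost without TNF replicate 1 (adjusted p = 0.0943), TNF replicate 2 (0.101), untreated replicate 1 (0.0956), untreated replicate 2 (0.0674) or untreated replicate 3 (0.0798).

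Igfbp5 (ENSMUSG00000026185), a binding protein with affinity for the extracellular matrix, had 2.78, 3.06 and 2.88 FPKM in the TNF libraries, against 3.76, 4.17 and 3.59 FPKM in the untreated libraries. The groups did not overlap. It fell by 0.31 on the log2 scale (SE 0.08, limma adjusted p = 0.0404). The call held in 1 of the 9 fits that left out a library, that without TNF plus WBG replicate 3; in the other 8, which left out each untreated, each TNF and the first or second TNF plus WBG replicate, the adjusted p ran from 0.05003 to 0.124. Igfbp6 (ENSMUSG00000023046), which prefers IGF2, had 13.0, 11.8 and 11.8 FPKM with TNF, against 11.9, 13.5 and 10.1 FPKM untreated, and the ranges overlapped (log2 fold change 0.05, 95% confidence interval -0.19 to 0.28, adjusted p = 0.844). Igfbp2 (ENSMUSG00000039323) stayed at 0.12 FPKM or less in every library and was not tested.

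**Figure D2:**
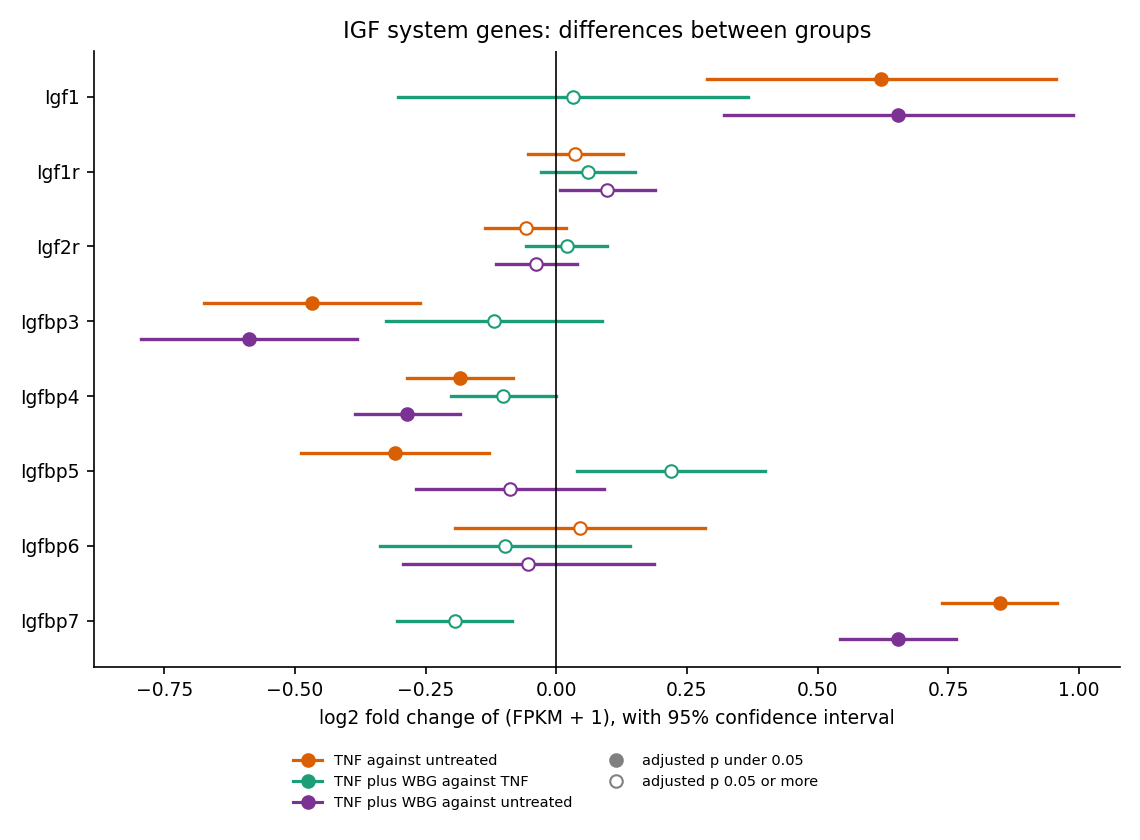
Log2 fold changes of FPKM plus 1 for the 8 IGF genes tested in the 3 comparisons, with 95% confidence intervals from the limma fit of all 9 libraries. Filled points have an adjusted p under 0.05. Igfbp7 has the largest rise (0.85, TNF against untreated) and Igfbp3 the largest fall (-0.59, TNF plus WBG against untreated).

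The granules were examined by setting TNF plus WBG libraries against those with TNF. None of the 8 IGF genes was called by limma at an adjusted p under 0.05, where 0.0998% of all genes were called (0.0691% higher, 0.0307% lower), and 3 had an unadjusted p under 0.05 (Igfbp7, Igfbp5 and Igfbp4), against 9.06% of all genes. Igfbp7 had 253, 242 and 269 FPKM in the TNF plus WBG libraries, against 291, 284 and 299 FPKM in the TNF libraries. All libraries with the granules lay below all those without (log2 fold change -0.19 ± 0.05, SE; adjusted p = 0.387). Igfbp5 had 3.67, 3.79 and 3.20 FPKM in the TNF plus WBG libraries, against 2.78, 3.06 and 2.88 FPKM in the TNF libraries, and again the groups did not overlap (log2 fold change 0.22 ± 0.08, SE; adjusted p = 0.497). Igf1r had 29.4, 28.4 and 28.2 FPKM with TNF plus WBG, all above the 27.2 to 27.6 FPKM of the TNF libraries, with a log2 fold change of 0.06 (adjusted p = 0.701). Groups that do not overlap were common in this comparison: 14.7% of all genes had them (7.03% higher, 7.72% lower), and so did 3 of the 8 IGF genes, 2 higher and 1 lower.

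The remaining members overlapped between TNF plus WBG and TNF. Igfbp4 had 101, 100.0 and 109.5 FPKM with TNF plus WBG, against 108, 109 and 116 FPKM with TNF (log2 fold change -0.10, 95% confidence interval -0.20 to -0.00059, unadjusted p = 0.0489, adjusted p = 0.550). Igf1 had 7.53, 6.30 and 5.46 FPKM with TNF plus WBG, against 5.53, 6.51 and 6.66 FPKM with TNF (log2 fold change 0.03, 95% confidence interval -0.30 to 0.37, adjusted p = 0.971). Its direction depended on single libraries: it was -0.07 on the log2 scale when the first TNF plus WBG library was omitted, and -0.04 when the first TNF library was. Igfbp3 had 4.87, 3.83 and 4.42 FPKM with TNF plus WBG, against 5.46, 4.43 and 4.63 FPKM with TNF (log2 fold change -0.12, adjusted p = 0.745). Igfbp6 (-0.10, adjusted p = 0.835) and Igf2r (0.02, adjusted p = 0.905) had intervals that covered 0.

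TNF plus WBG against untreated uses the untreated libraries of the TNF comparison again, so the results are not independent of each other. Igfbp7 and Igf1 rose and Igfbp3 and Igfbp4 fell, 4 of 8 genes, where 9.19% of all genes were called (5.52% higher, 3.67% lower; limma, adjusted p under 0.05). An unadjusted p under 0.05 was found for 5 of 8, against 22.8% of all genes. Groups that did not overlap were found for 3 genes higher and 2 lower, against 14.5% and 13.6% of all genes. Of the 2 macrophage markers tested, Cd14 was called higher with TNF plus WBG than untreated (6.64 against 4.59 FPKM, adjusted p = 0.0254). Of the 12 fibroblast markers tested, Pdgfrb and Postn were called lower. The part of these markers in the results was not tested. Igfbp7 averaged 255 ± 13.8 FPKM with TNF plus WBG and 161 ± 7.33 FPKM untreated (SD, n = 3 each), 1.58-fold higher (log2 fold change 0.65 ± 0.05, SE; adjusted p = 5.57e-05). Igfbp3 averaged 4.37 ± 0.52 FPKM with TNF plus WBG and 7.05 ± 0.17 FPKM untreated (log2 fold change -0.59 ± 0.09, SE; adjusted p = 0.00403). Igfbp4 averaged 103 ± 5.33 FPKM with TNF plus WBG and 126 ± 1.88 FPKM untreated (log2 fold change -0.29 ± 0.04, SE; adjusted p = 0.00404), and it was called with any 1 library left out. The difference between these groups with TNF, TNF plus WBG against TNF, did not pass for Igfbp4, as given above.

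Igf1 averaged 6.43 ± 1.04 FPKM with TNF plus WBG and 3.74 ± 0.90 FPKM untreated (SD, n = 3 each), 1.72-fold higher (log2 fold change 0.65 ± 0.15, SE; adjusted p = 0.0250). That call was lost without TNF plus WBG replicate 1 (adjusted p = 0.0839), TNF plus WBG replicate 2 (0.0726), untreated replicate 1 (0.0856) or untreated replicate 3 (0.0913). Igfbp5 averaged 3.55 ± 0.31 FPKM with TNF plus WBG and 3.84 ± 0.30 FPKM untreated, and its ranges overlapped (log2 fold change -0.09, 95% confidence interval -0.27 to 0.09, adjusted p = 0.578). Igf1r was higher in every TNF plus WBG library than in any untreated library, by a log2 of 0.10 (adjusted p = 0.187). Igf2r (-0.04, adjusted p = 0.576) and Igfbp6 (-0.05, adjusted p = 0.833) overlapped.

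By level, the set had the same upper order in all 3 groups, and the ranges of neighbours were apart: Igfbp7, then Igfbp4, Igf2r, Igf1r and Igfbp6. Below these the order differed. With TNF plus WBG and with TNF, Igf1 came next, above Igfbp3 and Igfbp5, with ranges apart. Some of these gaps were narrow. In TNF replicate 1, Igf1 had 5.53 FPKM and Igfbp3 5.46 FPKM. In TNF plus WBG replicate 2, Igfbp3 had 3.83 FPKM and Igfbp5 3.79 FPKM. In untreated libraries Igfbp3 came next at 7.05 ± 0.17 FPKM, and Igfbp5 (3.84 ± 0.30 FPKM) and Igf1 (3.74 ± 0.90 FPKM) had overlapping ranges. Igfbp7 stood above 98.3% of the genes tested with TNF plus WBG, 98.5% with TNF and 97.7% untreated. The FPKM of Igf2r was on average 2.57 times that of Igf1r with TNF plus WBG, 2.65 times with TNF and 2.84 times untreated.

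The binding proteins summed to 372, 361 and 399 FPKM in the TNF plus WBG libraries, 420.4, 412 and 434 FPKM in the TNF libraries, and 319.5, 304 and 308 FPKM in the untreated libraries. Igfbp7 set the place of the untreated libraries in this order. Without it the sum was 123 ± 5.95 FPKM with TNF plus WBG, 131 ± 3.58 FPKM with TNF and 149 ± 2.60 FPKM untreated (SD, n = 3 each), so that untreated libraries had the highest level. Igfbp7 made up 67.5 ± 0.51% of the summed FPKM with TNF plus WBG, 69.0 ± 0.15% with TNF and 52.0 ± 1.14% untreated. Igfbp4 made up 27.4 ± 0.36% with TNF plus WBG, 26.3 ± 0.44% with TNF and 40.6 ± 0.48% untreated. The FPKM of Igfbp7 was 2.42 to 2.52 times that of Igfbp4 in the TNF plus WBG libraries, 2.59 to 2.68 times in the TNF libraries and 1.23 to 1.31 times in the untreated libraries. These sums and shares rest on the members' own values and were not tested.

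**Figure D3:**
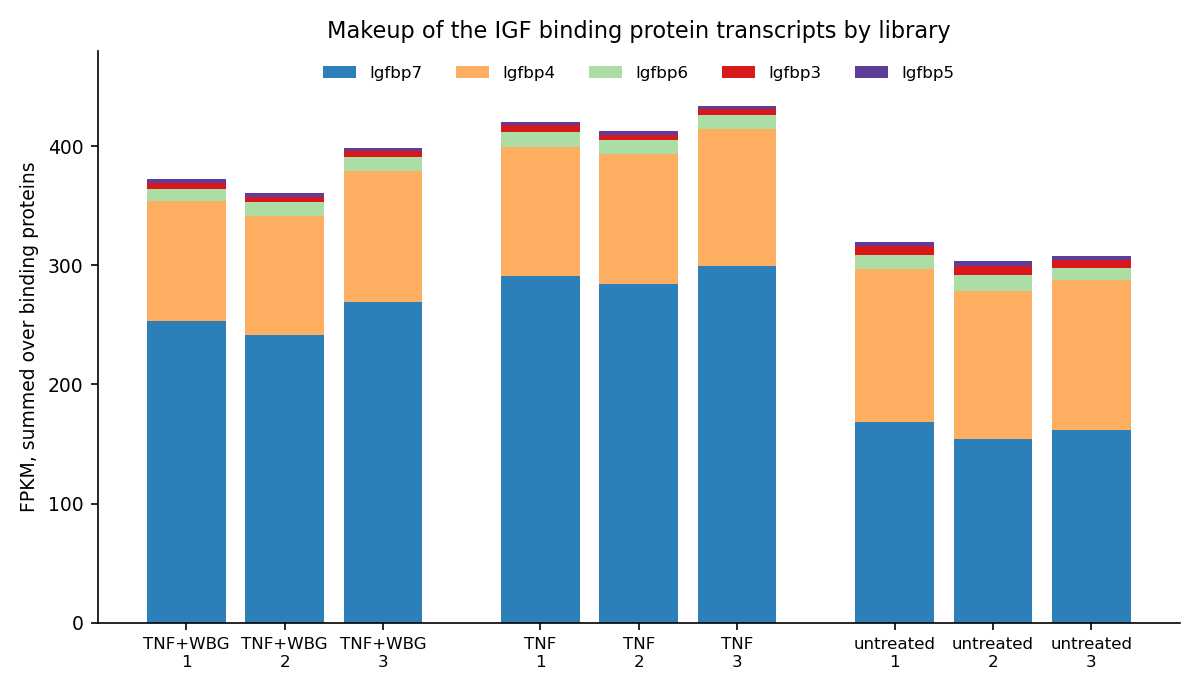
Stacked bars of FPKM for the binding proteins in each of the 9 libraries, on a linear axis from 0; Igfbp2 is left out because it does not exceed 0.12 FPKM. Igfbp7 is the largest part in every library, 67.5% with TNF plus WBG, 69.0% with TNF and 52.0% untreated on average, and the part of Igfbp4 is larger in untreated libraries.

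Among pairs of neighbours in RefSeq order, Igfbp5 lies beside Igfbp2 on chromosome 1, and Igfbp5 had means of 2.91 to 3.84 FPKM where Igfbp2 had at most 0.12 FPKM in any library. Igfbp3 lies beside Igfbp1 on chromosome 11; Igfbp1, a liver-secreted binding protein outside the set, was listed at 0 in all 9 libraries. These neighbours were looked up after the values were seen.

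The profile over the 9 libraries was compared with that of every gene with a mean of at least 5 FPKM, as the root mean square difference of centred log2 values. The genes nearest to Igfbp7 were Ntn1, a netrin (0.07), Psmb10, an immunoproteasome subunit (0.07), and Ddx58, the RNA sensor RIG-I (0.08), where the median over all such genes was 0.38. Psmb10 averaged 29.3 ± 1.70 FPKM with TNF plus WBG, 33.2 ± 2.41 FPKM with TNF and 19.02 ± 1.00 FPKM untreated (SD, n = 3 each). Among those nearest to Igf1 were Rgs3, a regulator of G protein signalling (0.12), and Gng2, a G protein gamma subunit (0.13), with a median of 0.36 over all genes compared. Nearest to Igfbp3 were Id3, an inhibitor of basic helix-loop-helix factors (0.08), Ank, a pyrophosphate transporter (0.09), and Aspa, aspartoacylase (0.09), with a median of 0.29. Id3 averaged 20.3 ± 1.41 FPKM with TNF plus WBG, 21.6 ± 0.60 FPKM with TNF and 32.4 ± 1.04 FPKM untreated. Igfbp4 was nearest to Bcl6, a transcriptional repressor, Oxct1 and Acat1, enzymes of ketone body use (0.04 each, median 0.16). Igfbp5 was nearest to Cd109, a cell surface protein, Atg4c, an autophagy protease (0.05 each), and Simc1 (0.06, median 0.18). Flat profiles give small differences more easily, so these values are not compared between members.

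The other genes of the pathway were taken from 8 lists. For TNF against untreated the median log2 fold change over all genes tested was 0.00, and the counts below stand beside 6.43% of all genes called higher and 4.21% called lower. Among proteases that cut binding proteins and their inhibitors, 1 of 5 tested genes rose and 1 fell (median 0.07; 10.6% of all genes called). Stc2, stanniocalcin 2, a secreted inhibitor of PAPP-A, had 12.8, 12.4 and 11.4 FPKM in the TNF libraries, against 29.997, 32.5 and 31.1 FPKM in the untreated libraries. It fell by 1.29 on the log2 scale (SE 0.06; limma adjusted p = 3.8e-06). With TNF plus WBG it had 16.3, 14.4 and 15.0 FPKM, all above the TNF libraries (log2 fold change 0.30 against TNF, adjusted p = 0.306) and all below the untreated ones (-0.99, adjusted p = 2.16e-05). Adam12, a metalloprotease that in human can cleave IGFBP3 and IGFBP5, rose to 2.04 ± 0.13 FPKM with TNF, against 0.65 ± 0.16 FPKM untreated (SD, n = 3 each; log2 fold change 0.89, adjusted p = 0.000389), and to 1.91 ± 0.12 FPKM with TNF plus WBG (0.83 against untreated, adjusted p = 0.000637). In that last comparison Stc1, a related inhibitor, and Prss23, a serine protease, were not called in the fit of all 9 libraries. Among the omissions, Stc1 was called higher only without TNF plus WBG replicate 3 (adjusted p = 0.0157) and Prss23 lower only without untreated replicate 1 (0.0161).

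Pappa, which encodes PAPP-A itself, was below the filter. It had 0.16, 0.14 and 0.06 FPKM in the TNF plus WBG libraries, 0.10, 0.10 and 0.09 FPKM in the TNF libraries, and 0.02, 0.01 and 0.01 FPKM in the untreated libraries, so the groups with TNF did not overlap the untreated one. In the fit with no filter its log2 fold change was 0.14 for TNF plus WBG against untreated (adjusted p = 0.0485) and 0.11 for TNF against untreated (adjusted p = 0.110). Pappa2, a related protease, had group means of 0.21 to 0.24 FPKM. Both were chosen after their values were seen.

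Among relatives of the binding proteins, 2 of 6 tested genes rose with TNF and none fell (median 0.12), beside 6.43% of all genes higher and 4.21% lower. Ccn5, a CCN family matrix protein, rose 2.48-fold to 3.32 ± 0.59 FPKM with TNF, against 1.34 ± 0.14 FPKM untreated (log2 fold change 0.88, limma adjusted p = 0.00157). Ccn1, also of the CCN family, rose 1.21-fold (log2 fold change 0.27, adjusted p = 0.00428). Ccn1 had 65.2, 62.7 and 65.9 FPKM with TNF plus WBG, against 74.3, 77.4 and 80.5 FPKM with TNF and 62.6, 62.7 and 66.6 FPKM untreated. The TNF plus WBG libraries lay within the untreated range and below all TNF libraries, with a log2 fold change of -0.26 against TNF that did not pass (adjusted p = 0.173). Against untreated, Ccn5 was the 1 gene of this list called with TNF plus WBG (log2 fold change 0.86, adjusted p = 0.00188). Ccn3, a CCN family member below the filter and chosen after its values were seen, averaged 0.45 ± 0.05 FPKM with TNF plus WBG and 0.18 ± 0.05 FPKM untreated, and passed in the fit with no filter (log2 fold change 0.30, adjusted p = 0.0330). Htra3, a serine protease with an IGFBP-like domain, was not called in the fit of all 9 libraries. Among the omissions, it was called lower with TNF only without TNF plus WBG replicate 2 (adjusted p = 0.0290) or replicate 3 (0.0273). With TNF plus WBG against untreated it was called lower only without TNF plus WBG replicate 2 (0.0256). The most abundant of the list was Htra1, a serine protease of the same family, which averaged 231 ± 7.55 FPKM with TNF plus WBG, 234 ± 5.44 FPKM with TNF and 228 ± 7.21 FPKM untreated.

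Of 17 tested genes in the list of receptor kinases, adaptors and brakes, 2 rose with TNF and none fell (median -0.03), a share near the 10.6% called over all genes. Grb14, an adaptor that inhibits the insulin receptor kinase, rose 2.00-fold to 11.6 ± 0.39 FPKM with TNF, against 5.81 ± 0.88 FPKM untreated (log2 fold change 0.90, limma adjusted p = 0.000314), and was 1.94-fold higher with TNF plus WBG than untreated (adjusted p = 0.000441). Gab1, a docking protein that recruits PI3K, rose 1.17-fold with TNF (adjusted p = 0.00983) and 1.16-fold with TNF plus WBG against untreated (adjusted p = 0.0169). The call of Gab1 in that last comparison was lost without TNF plus WBG replicate 1 (0.0612), TNF plus WBG replicate 2 (0.0572) or untreated replicate 1 (0.0573). Socs3, a suppressor of cytokine signalling, was not called in the fit of all 9 libraries. Among the omissions, it was called lower with TNF only without TNF plus WBG replicate 2 (adjusted p = 0.0303). Insr, the insulin receptor, had 19.8 ± 0.83 FPKM with TNF and 18.3 ± 0.39 FPKM untreated and did not pass (adjusted p = 0.206).

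In the PI3K-AKT-FOXO list 3 of 20 genes rose with TNF and none fell (median 0.01), beside 6.43% of all genes higher and 4.21% lower. Foxo3, a transcription factor restrained by AKT, rose 1.30-fold to 36.7 ± 0.62 FPKM with TNF, against 28.2 ± 0.53 FPKM untreated (limma adjusted p = 0.000317). Pik3r1, a regulatory subunit of PI3K, rose 1.25-fold to 29.5 ± 0.23 FPKM with TNF, against 23.7 ± 0.86 FPKM untreated (adjusted p = 0.00164). Both were also called with TNF plus WBG against untreated (adjusted p = 0.000163 and 0.00149 in that order). Pik3r3, another regulatory subunit, rose 1.16-fold with TNF (adjusted p = 0.0240), a call lost without TNF replicate 1 (0.0774), TNF replicate 3 (0.0802), or untreated replicates 1 (0.0610), 2 (0.0702) and 3 (0.0715).

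The growth hormone axis drives Igf1 in liver. Of its 4 genes, Jak2, the kinase of the growth hormone receptor and of many cytokine receptors, rose 1.26-fold with TNF (limma adjusted p = 0.0278) and 1.23-fold with TNF plus WBG against untreated (adjusted p = 0.0468). The first call was lost without TNF replicate 2 (0.0912) or 3 (0.0821) or any untreated replicate (0.0606 to 0.0889), with no filter (0.0588) and with only the 6 libraries compared (0.0541). The second held only when TNF replicate 1 or 2 was the library omitted; the other 7 omissions gave 0.0587 to 0.145. It was also lost with a pseudocount of 5 (0.0507), no filter (0.0925), median-ratio scaling (0.0508), quantile normalization (0.0515), only 6 libraries (0.0562) and no trend (0.05002). The list's median was 0.13. Of 6 tested genes in the imprinted gene network, Mest, an imprinted hydrolase-like gene, fell to 2.31 ± 0.38 FPKM with TNF, against 4.40 ± 0.37 FPKM untreated (log2 fold change -0.71, adjusted p = 0.00215), and to 2.15 ± 0.16 FPKM with TNF plus WBG (-0.78 against untreated, adjusted p = 0.00146); the list's median was 0.15. In this list Ndn, a MAGE family protein, and Gnas, a G protein alpha subunit, were not called in the fit of all 9 libraries. Among the omissions, Ndn was called higher with TNF only without TNF replicate 1 (0.0491). Gnas was called higher with TNF plus WBG than untreated only without TNF replicate 1 (0.0240).

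None of 3 IGF2 mRNA-binding proteins (median 0.07) and none of 8 mannose 6-phosphate sorting genes (median 0.05) was called by limma in any of the 3 comparisons, and none had an unadjusted p under 0.05 with TNF. The largest TNF differences in these lists were those of Igf2bp3 (log2 fold change 0.16, adjusted p = 0.485) and Gga3, a sorting adaptor (0.19, adjusted p = 0.631). In TNF plus WBG against TNF no gene of the 8 lists was called; an unadjusted p under 0.05, which 9.06% of all genes had, was found for 2 of 6 relatives of the binding proteins, 3 of 5 protease or inhibitor genes, 2 of 20 in the PI3K list, 1 of 6 imprinted genes and 1 of 8 sorting genes. Of the genes named from the lists, those outside the rule, chosen after their values were seen, were Pik3r3, Stc1, Prss23, Htra1, Htra3, Socs3, Insr, H19, Ndn and Gnas. Beside Igfbp7 and Igf2, exons of Itgam, Fbn1, Stc1, Prss23, Pappa2, H19, Gab1, Pik3r3, Mest, Gnas, Igf2bp3, Gga3, Gng2, Ank, Bcl6, Oxct1 and Simc1 overlap at least 1 other annotated gene. Exons of Pik3r2, Foxo1 and Rack1 do so as well.

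**Figure D4:**
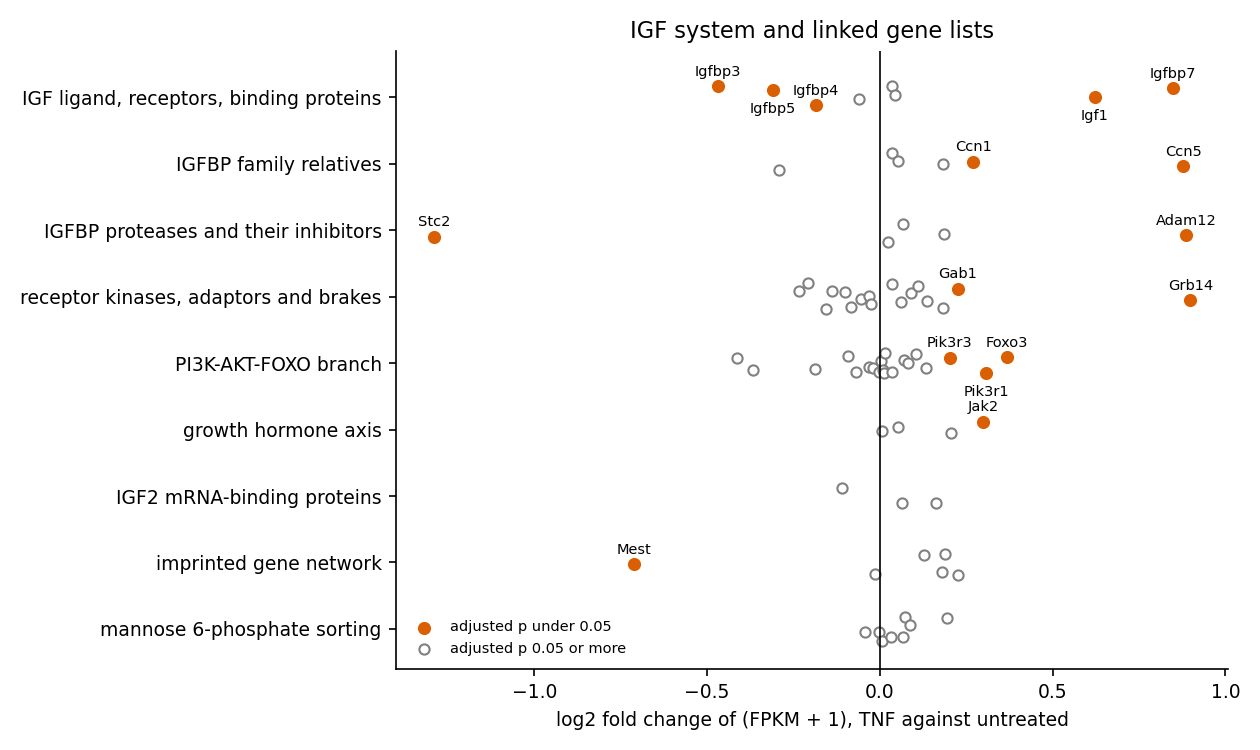
Log2 fold changes of FPKM plus 1, TNF against untreated, for the IGF genes tested and for the tested genes of the 8 linked lists; vertical spread within a list carries no value. Filled, named points have an adjusted p under 0.05. Stc2 (-1.29) lies farthest to the left, and Grb14 (0.90), Adam12 (0.89), Ccn5 (0.88) and Igfbp7 (0.85) farthest to the right.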

How the data were processed

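The deposited values are FPKM, a unit the labels name for the authors' table, with 1 value for each of 56289 Ensembl genes in 9 poly-A libraries; aligner, counter, annotation and assembly remain not given in the sources used here. Symbols were matched through GENCODE M21 (55144 matched). Genes with at least 1 FPKM in at least 3 of 9 libraries were kept (13026). The log2 of FPKM plus 1 entered 1 limma fit of all 9 libraries (version 3.58.1, under R 4.3.3), whose only term was the group and whose spread followed a trend; tests were two-sided, called at an adjusted p under 0.05 over all genes kept. Errors beside FPKM are SD (n = 3). Folds are ratios of mean FPKM of at least 1. Log2 values hold the pseudocount and understate changes of low genes. The fit was also run on simulated data with independent normal noise. Such data hold no effects shared within a library, so the run cannot show how the fit handles those. The members and gene lists were chosen with earlier results of these data known.

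Named genes are all 10 members, up to 2 called genes per direction from each list in TNF against untreated (or the largest change where none was called), any list gene called in the other comparisons, and the 3 nearest profiles of each called member, of which 1 is not reported here; any gene beyond these is marked in the text as picked from its values. The 8 linked lists hold relatives of the binding proteins, proteases and inhibitors, receptor adaptors, the PI3K-AKT-FOXO branch, the growth hormone axis, IGF2 mRNA-binding proteins, imprinted genes and mannose 6-phosphate sorting; 7 marker lists were used as well. Promoter sequences are from RefSeq. The 18 alternatives were pseudocounts of 0.1 and 5, no filter, a mean of at least 5 FPKM, median-ratio scaling, quantile normalization, the 6 libraries compared alone, no trend, a replicate block, and omission of each library. Figures used python 3.11.15 and matplotlib 3.10.9.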

Additional observations from a re-analysis of the deposited data

How the results depend on the processing

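Of 429 values of the 8 IGF genes under the 18 alternatives (Igfbp5 was not tested at a mean of at least 5 FPKM), 395 kept their direction and their side of the threshold, 29 lost a call, none gained one and 5 changed sign, all in differences that had not passed. The count of called IGF genes in TNF against untreated (5) ran from 2 to 5 when a library was left out and became 2 with no filter, where 31192 genes were tested in place of 13026. There the adjusted p was 0.0827 for Igf1, 0.0658 for Igfbp4 and 0.0959 for Igfbp5. Igfbp4 also lost its call without the trend (0.0680) and Igfbp5 with only the 6 libraries compared (0.0598). In TNF plus WBG against untreated the count of 4 ran from 3 to 4 over all alternatives, and Igf1 lost its call with no filter (0.0753) and with only 6 libraries (0.0578). In TNF plus WBG against TNF the count was 0 throughout. Over all genes, TNF against untreated gave 1386 calls and 919 (without TNF replicate 3) to 1296 when a library was left out. Lower calls moved more: 549 became 357 without TNF replicate 2, 360 without TNF replicate 3 and 346 without untreated replicate 3. TNF plus WBG against TNF gave 13, and 7 with only the 6 libraries, 8 with the replicate block, and 8 (without untreated replicate 1) to 14 when a library was left out. Its 4 lower calls became 1 with only the 6 libraries or without untreated replicate 1, and 2 with the block or without untreated replicate 3. Left-out libraries changed 5 signs. For Igfbp6 in TNF against untreated the log2 fold change ran from -0.0537 to 0.138, negative without untreated replicate 3. For Igf1 in TNF plus WBG against TNF it ran from -0.0721 to 0.129, negative without TNF plus WBG replicate 1 or TNF replicate 1 (-0.04). For Igfbp6 in TNF plus WBG against untreated it ran from -0.152 to 0.0397, positive without untreated replicate 2 or TNF plus WBG replicate 1 (0.02). The causes were not tested. Same-numbered libraries had correlations of deviations from -0.07 to 0.11, so the numbers were not taken to pair the samples. With the replicate block Igf1 had an adjusted p of 0.0512 in TNF against untreated; no other call of an IGF gene changed. Of the list genes, Jak2 lost its calls under the block in TNF against untreated (0.0688) and TNF plus WBG against untreated (0.0992), and Pik3r2 gained one in the second (0.0367). Other gains outside the omissions were Htra3 (0.0259) and Socs3 (0.0498) with 6 libraries and Foxo1 without the trend (0.0362) in TNF against untreated, and Gnas with 6 libraries (0.0424), Prss23 with median-ratio scaling (0.0486) and Rack1 with quantile normalization (0.0311) in TNF plus WBG against untreated. With no counts in the file, depth sets a limit for Igf2 and Igfbp2 that cannot be given.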
